A study of Mus musculus with 4 samples.

Results

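The troponin and tropomyosin genes encode the switch that calcium throws on the thin filament of striated muscle, and 10 of them were followed here in mouse quadriceps: Tnnt1, Tnnt2, Tnnt3, Tnni1, Tnni2, Tnnc1, Tnnc2, Tpm1, Tpm2 and Tpm3. They were chosen by gene symbol and are 10 of the 51826 rows of the deposited table. RNA selected for polyA came from the quadriceps of sedentary, littermate male C57BL6/J mice at about 20 weeks of age, with 1 library per mouse. The 2 WT mice carried intact Mef2d, and the 2 Mef2dα2 Eko mice were homozygous for a germline CRISPR-Cas9 deletion of the α2 exon, the exon that adult striated muscle includes in Mef2d transcripts, so the deletion is present in every cell and Mef2d itself is still transcribed. The 2 groups are called WT and Eko from here on, and values given for WT or Eko animals are in the order of mouse 1 and mouse 2. The founder line behind these Eko mice is not given in the sources used here. Slow, fast and cardiac isoforms of each subunit were compared between the genotypes and, as slow-to-fast ratios, mouse by mouse.

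Tropomyosin lies along the actin filament and covers the sites where myosin binds, and the troponin complex holds it there until calcium is released. In the complex, troponin C binds calcium, troponin I inhibits the filament at rest, and troponin T ties the complex to tropomyosin. Slow-twitch and fast-twitch fibres express different genes for each subunit, and the quadriceps of the mouse is made mostly of fast fibres, so these transcripts are widely used to tell fibre types apart.

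Slow-isoform transcripts were scarce and differed more between mice of 1 genotype than between the genotypes, whereas fast-isoform transcripts were abundant and nearly even over the 4 mice. All 10 members passed the filter on low counts, and 0 of them reached the threshold of 0.05 on the adjusted p in the quasi-likelihood test of edgeR. At an unadjusted p below 0.05 the count was also 0 (the lowest p was 0.137, for Tnnt2), and DESeq2 and limma-voom each called 0 of the 10. Over all genes tested edgeR called 0.416%, or 67 of 16120, of which 50 were lower and 17 higher in Eko muscle. An unadjusted p below 0.05 was reached by 11.6% of all genes tested, and DESeq2 called 1.97% of them and limma-voom 0.354%. Log2 fold changes are Eko against WT throughout, and their median was −0.04 over the members and −0.01 over all genes tested. In 8 members the values of the 2 genotypes overlapped. Tpm1 was higher in each Eko animal than in either WT animal, as 20.8% of all genes tested were, and Tpm2 was lower in each, as 23% were.

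Total expected counts were between 72626757 and 85176059 per library, of which the 10 members took between 2.85% and 3.24%. Levels are given as CPM, counts scaled to the library total after TMM normalization, and the level that 3 counts would give, taken as the smallest a library can show, lay between 0.0348 and 0.0419 CPM. Mef2d had between 17206 and 21695 counts per library, with a log2 fold change of 0.02 (SE 0.08, adjusted p = 0.960), but a count over the whole gene holds both α exons and cannot check the deletion. Skeletal muscle markers (Acta1, Ckm, Myh4, Myh1, Mylpf and Ttn) summed to between 126846 and 134830 CPM, and none was absent from a library.

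**Figure D1:**
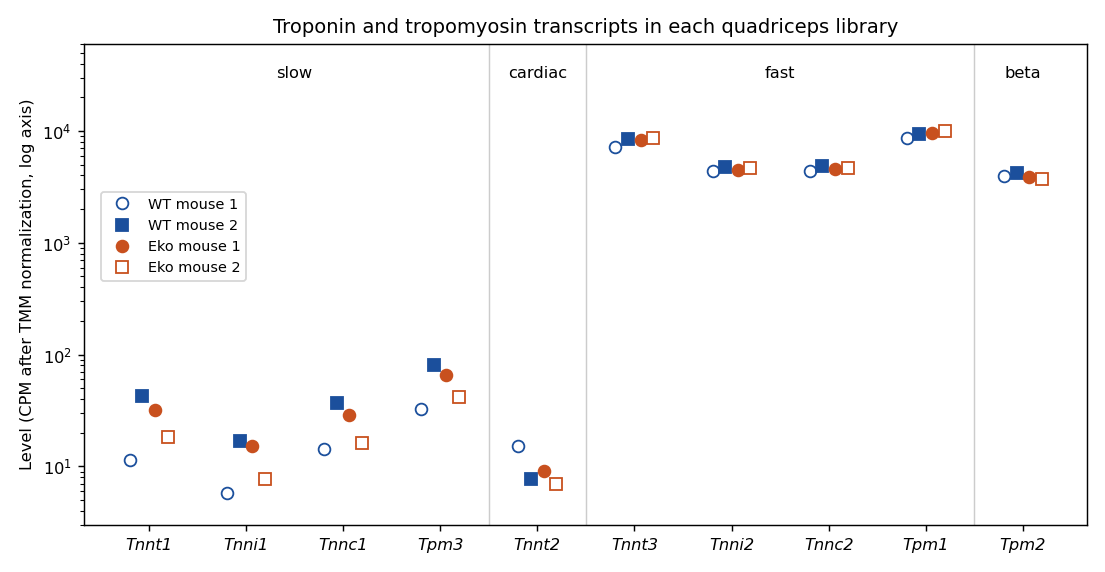
Level of each member in each of the 4 quadriceps libraries, in CPM after TMM normalization on a log axis, with WT mice in blue, Eko mice in orange, circles for mouse 1 and squares for mouse 2 of a genotype. The slow genes Tnnt1, Tnni1, Tnnc1 and Tpm3 lie between 5.73 and 80.1 CPM and spread widely within each genotype, and the fast genes and Tpm2 lie between 3742 and 9979 CPM with their 4 points close together; CPM are not corrected for gene length.

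The slow troponins were the members that differed most from mouse to mouse. Tnnt1, slow skeletal troponin T, lies on the minus strand of GRCm38 chromosome 7 (4504570 to 4516382). It was at 11.4 CPM in WT mouse 1, 42.6 in WT mouse 2, 32.1 in Eko mouse 1 and 18.5 in Eko mouse 2, from 869, 3447, 2766 and 1325 counts. WT mouse 2 was highest and WT mouse 1 lowest, and both Eko mice lay between them. The difference was 3.72-fold between WT animals and 1.73-fold between Eko animals, against a log2 fold change between genotypes of −0.09 (SE 0.54, 95% interval −1.37 to 1.18, adjusted p = 0.965).

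Tnni1, the slow skeletal inhibitory subunit, on the plus strand of chromosome 1 (135779434 to 135810989), had the lowest levels per kb of the slow members. Its values were 5.73 and 16.7 CPM in WT mice 1 and 2 and 15.1 and 7.76 CPM in Eko mice 1 and 2. The order of the mice was that of Tnnt1, with a 2.92-fold difference between WT animals, a 1.95-fold difference between Eko animals, and a log2 fold change of 0.03 (SE 0.48, 95% interval −1.12 to 1.18, adjusted p = 0.990).

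Tnnc1, which serves as troponin C in both slow skeletal and cardiac muscle, lies on the plus strand of chromosome 14 (31208312 to 31211729), overlapping Nisch on the other strand. It was at 14.2 and 36.6 CPM in WT animals and at 28.7 and 16.2 CPM in Eko animals, again with WT mouse 2 on top, WT mouse 1 at the bottom and Eko animals between. Its values differed 2.58-fold between WT animals and 1.78-fold between Eko animals, and the genotypes by −0.18 in log2 (SE 0.43, 95% interval −1.19 to 0.84, adjusted p = 0.910).

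Tpm3, whose muscle product is the slow α-tropomyosin and which also makes tropomyosins of non-muscle cells, lies on the plus strand of chromosome 3 (90072649 to 90100902). It stood at 32.7 and 80.1 CPM in WT animals and at 65.1 and 41.9 CPM in Eko animals. Here too the mice ranked WT mouse 2, Eko mouse 1, Eko mouse 2 and WT mouse 1, with folds of 2.45 within WT and 1.55 within Eko and a log2 fold change between genotypes of −0.08 (SE 0.39, 95% interval −0.996 to 0.84, adjusted p = 0.958). Since the tropomyosin genes resemble one another and RSEM divides shared reads by a probability model, some Tpm3 reads may have been assigned from the far more abundant Tpm1 and Tpm2, which was not tested.

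The direction of the genotype difference in these genes depended on which mice were included. Without WT mouse 1, the log2 fold changes of Tnnt1, Tnni1, Tnnc1 and Tpm3 were −0.75, −0.54, −0.70 and −0.58, and without WT mouse 2 they were 1.16, 1.02, 0.68 and 0.73. Leaving out Eko mouse 1 gave −0.53, −0.52, −0.64 and −0.42 for the same genes, and leaving out Eko mouse 2 gave 0.25, 0.43, 0.18 and 0.20. None of these 16 values passed the threshold, and the lowest adjusted p among them was 0.0739, for Tnnt1 without WT mouse 2. In these fits the lone mouse of a genotype is assumed to vary like the mice of the other.

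The root mean square of the WT and the Eko difference between same-genotype mice was 1.45 in log2 for Tnnt1, 1.29 for Tnni1, 1.13 for Tnnc1 and 1.02 for Tpm3. Its median over all genes tested was 0.18. These values lay at the 98.1, 97.2, 96.2 and 95.2 percentiles of all genes tested. In polyA RNA of whole muscle, fewer slow fibres and less slow-isoform RNA per fibre cannot be told apart. Besides these 4 genes, Tpm2 was also higher in WT mouse 2 than in WT mouse 1 and in Eko mouse 1 than in Eko mouse 2, by 1.06-fold and 1.03-fold, so that 5 of 10 members had this order, against 21.7% of all genes tested. The order was read from the slow members themselves, so this count only describes them and carries no test.

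**Figure D2:**
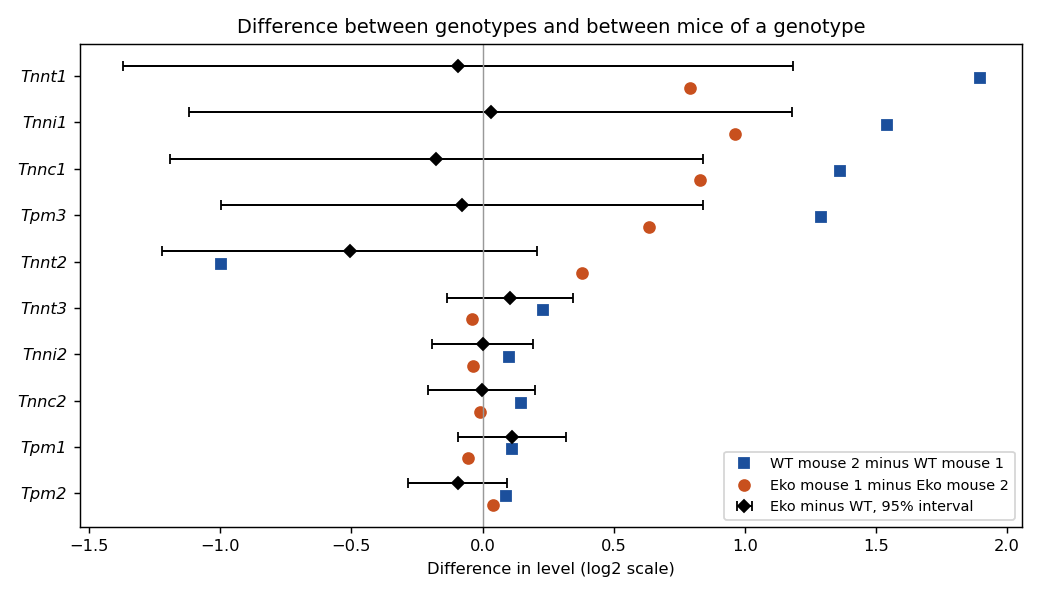
Log2 difference in level of each member between genotypes (black diamonds, Eko minus WT, with bars for the 95% interval of the edgeR fit), between WT animals (blue squares, mouse 2 minus mouse 1) and between Eko animals (orange circles, mouse 1 minus mouse 2). For Tnnt1, Tnni1, Tnnc1 and Tpm3 the diamonds sit near 0, between −0.18 and 0.03, while the differences between mice of 1 genotype run from 0.63 to 1.90.

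The sequences upstream of the 3 slow troponin genes are shown because their transcripts varied together between mice, and because E-boxes and MEF2 sites are the motifs through which muscle transcription factors are known to act. Each is the 250 bases before the RefSeq start on GRCm38.p6, read 5′ to 3′ on the strand of the gene, at chr7:4515976-4516225 (minus strand) for Tnnt1, chr1:135799171-135799420 (plus strand, the first of 2 starts) for Tnni1 and chr14:31208062-31208311 (plus strand) for Tnnc1. Capitals mark E-boxes, CANNTG, which reads the same on both strands, and the TATA box TATAAA. Of these bases, 29 of Tnnt1, 19 of Tnni1 and 0 of Tnnc1 lie in exons that GENCODE M21 annotates.

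Tnnt1: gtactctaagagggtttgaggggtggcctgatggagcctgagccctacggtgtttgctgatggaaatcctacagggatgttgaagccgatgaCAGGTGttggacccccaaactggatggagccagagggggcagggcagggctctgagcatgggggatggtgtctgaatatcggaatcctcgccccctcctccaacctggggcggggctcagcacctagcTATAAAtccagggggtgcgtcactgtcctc
Tnni1: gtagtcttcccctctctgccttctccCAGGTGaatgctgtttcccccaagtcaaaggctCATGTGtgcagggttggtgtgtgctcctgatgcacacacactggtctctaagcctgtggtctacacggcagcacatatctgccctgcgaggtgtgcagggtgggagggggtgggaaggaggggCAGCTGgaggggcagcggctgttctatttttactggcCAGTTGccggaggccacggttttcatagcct
Tnnc1: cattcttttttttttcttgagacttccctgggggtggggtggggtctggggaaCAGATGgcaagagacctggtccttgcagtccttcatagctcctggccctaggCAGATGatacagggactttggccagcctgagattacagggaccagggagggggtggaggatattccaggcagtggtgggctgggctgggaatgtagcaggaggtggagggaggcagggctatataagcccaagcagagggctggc

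RefSeq windows running from 250 bases before a start to 50 after it were at hand for 8 of the 10 members, 11 windows in all, and Tnni2 and Tnnt3 had none. An E-box was in 11 of the 11 windows, and in 72.31% of 32851 windows of the same length over the genome. The upstream stretch of Tnni1 held 4 E-boxes, that of Tnnc1 held 2 with the same letters, and that of Tnnt1 held a single E-box. TATAAA was found in the window of Tnnt1 alone, at position −30 from the start, and in 13.62% of all windows. An exact match to the MEF2 pattern YTAWWWWTAR on either strand was in 0 of the 11 windows (3.19% of all windows). Y stands for C or T, W for A or T and R for A or G. A CArG box, CCWWWWWWGG, was in 0 (1.63%). The MCAT element CATTCC, searched on both strands, was in 3 (14.66%), including that of Tnnc1. The absence of these letters says nothing of sites outside the windows, or of sites inside them that depart from the exact pattern.

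Fast members made up nearly all of the troponin RNA and changed little from mouse to mouse. Tnnt3, fast skeletal troponin T, on the plus strand of chromosome 7 (142498836 to 142516009, overlapping Prr33 on the other strand), was at 7265 and 8532 CPM in WT animals and at 8376 and 8623 CPM in Eko animals. WT mouse 1 was lowest and the other 3 mice were close, and the log2 fold change was 0.11 (SE 0.10, 95% interval −0.13 to 0.35, adjusted p = 0.733). Tnni2, the fast inhibitory subunit, lies on the same strand and chromosome (142441808 to 142444410).

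It was at 4422 and 4736 CPM in WT animals and at 4521 and 4641 CPM in Eko animals. Both Eko values of Tnni2 lay between the WT values, and its log2 fold change was 0.00066 (SE 0.08, 95% interval −0.19 to 0.19, adjusted p = 0.999). Tnnc2, the fast calcium-binding subunit, on the minus strand of chromosome 2 (164777161 to 164779967, overlapping Ube2c on the other strand), was at 4400 and 4875 CPM in WT animals and at 4613 and 4645 CPM in Eko animals. Its Eko values also lay inside the WT range, with a log2 fold change of −0.0027 (SE 0.09, 95% interval −0.21 to 0.20, adjusted p = 0.996). The intervals of the 3 fast troponins therefore reached no further than 0.35 in log2 on either side, while those of the slow troponins reached beyond 1.

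Among the tropomyosins both Tpm1 and Tpm2 were abundant. Tpm1, the fast α-tropomyosin, on the minus strand of chromosome 9 (67022590 to 67049406), was at 8697 and 9412 CPM in WT animals and at 9608 and 9979 CPM in Eko animals. Its Eko values were both above the WT values, by a log2 fold change of 0.11 (SE 0.09, 95% interval −0.09 to 0.32, adjusted p = 0.668). Tpm2, β-tropomyosin, which pairs with the α-tropomyosins and is found in both slow and fast fibres, lies on the minus strand of chromosome 4 (43514711 to 43523765).

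In WT animals Tpm2 was at 3926 and 4177 CPM, and in Eko animals at 3850 and 3742 CPM. Both Eko values lay below both WT values, with a log2 fold change of −0.09 (SE 0.08, 95% interval −0.28 to 0.10, adjusted p = 0.697). Per kb of exon, the ratio of the Tpm2 level to the Tpm1 level was 1.01 and 0.989 in WT animals and 0.893 and 0.836 in Eko animals. The log2 ratio was thus lower in Eko animals by 0.21 on average, and the genotypes did not overlap. The exact two-sided permutation test gave p = 0.333, the smallest that 2 mice against 2 allow, and this ratio was examined after the values of both genes had been seen. With the longest coding transcript as length the ratio was 0.60 and 0.59 in WT animals and 0.532 and 0.498 in Eko animals, so its size depends on the length used.

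Tnnt2, cardiac troponin T, which skeletal muscle expresses in development, followed another pattern. On the plus strand of chromosome 1 (135836354 to 135852260), near Tnni1, it was at 15.3 and 7.68 CPM in WT animals and at 9.14 and 7.02 CPM in Eko animals, from 1164, 621, 788 and 502 counts. WT mouse 1, the lowest mouse for the slow troponins, was the highest for Tnnt2, and the other 3 mice lay close together. The log2 fold change was −0.51 (SE 0.30, 95% interval −1.22 to 0.21, adjusted p = 0.569).

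Without WT mouse 2 the log2 fold change of Tnnt2 was −0.91 and passed the threshold (adjusted p = 0.0275), and without WT mouse 1 it was 0.08 (adjusted p = 0.937). With no filter on low counts Tnnt2 passed the threshold at −0.51 (adjusted p = 0.0018), the log2 fold change it had with the filter. Under that setting 799 of 24621 genes passed. Tnni3, the cardiac inhibitory subunit and no member of the 10, ranked the mice as Tnnt2 did, with 7.21 and 3.83 CPM in WT animals and 4.38 and 3.22 CPM in Eko animals, and a log2 fold change of −0.53 (adjusted p = 0.546). Of the markers of heart or muscle spindle (Myh6, Myl7, Nppa and Myl4), the defining atrial gene Myl7 had 0 counts in every library, which allows up to 3 counts in each. The α-myosin gene Myh6 was at 106 and 52.3 CPM in WT animals and at 58.9 and 41.6 CPM in Eko animals, which ranked the mice as Tnnt2 did. The 4 genes summed to 108, 53.5, 61.0 and 43.7 CPM in WT mice 1 and 2 and Eko mice 1 and 2, most of it from Myh6, whereas Myl4 was at 1.54 and 0.915 CPM in WT animals and at 1.86 and 1.87 CPM in Eko animals. The part of such cells in the values of Tnnt2 was not tested.

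Per kb of exon, which allows genes to be compared, the members fell into an abundant and a scarce set. With the union of GENCODE M21 exons as length, the mean levels of the 4 mice in CPM per kb were 5791 for Tnnc2, 5179 for Tnnt3, 3059 for Tnni2, 1453 for Tpm1 and 1349 for Tpm2. The scarce set held Tnnc1 at 23.0, Tnnt1 at 11.9, Tpm3 at 9.03, Tnni1 at 3.15 and Tnnt2 at 1.26 CPM per kb. The ranges over the mice overlapped between the neighbours Tpm1 and Tpm2, Tnnc1 and Tnnt1, Tnnt1 and Tpm3, and Tnni1 and Tnnt2, although Tnnc1 was above Tnnt1 within each mouse. With the longest coding transcript as length, Tnnt3 (7599 CPM per kb) stood above Tnnc2 (6619), and Tpm1 (3261) stood further above Tpm2 (1804). With that length the scarce members were at 33.2 for Tnnc1, 24.7 for Tnnt1, 24.6 for Tpm3, 9.86 for Tnni1 and 8.16 CPM per kb for Tnnt2, and in WT mouse 1 Tnnt2 (12.8) stood above Tnnt1 (10.8). The levels, and the order within both sets, therefore depended on the length used.

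The balance between subunits of 1 fibre type was steadier than the balance between fibre types. The Tnnc1 level per kb was between 6.56 and 8.58 times that of Tnni1 in the 4 mice, and that of Tnnt1 between 3.26 and 4.16 times. Among the fast subunits, Tnnc2 was between 1.86 and 1.93 times Tnni2, and Tnnt3 between 1.55 and 1.76 times. These ratios depend on the lengths used, but their steadiness over the mice does not.

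Slow-to-fast ratios set each slow gene against the fast gene of the same subunit in the same library, in which the library total cancels. Tnnt1 was 0.113% of Tnnt3 in WT mouse 1, 0.359% in WT mouse 2, 0.275% in Eko mouse 1 and 0.154% in Eko mouse 2, in counts per kb. The 95% Wilson intervals, which cover counting error only, were 0.106 to 0.121, 0.347 to 0.371, 0.265 to 0.286 and 0.146 to 0.163%. No interval touched another, so the mice were set apart beyond counting error, and the genotypes overlapped.

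Troponin I gave the lowest ratios, with Tnni1 at 0.0539% and 0.147% of Tnni2 in WT animals and at 0.139% and 0.0695% in Eko animals. The intervals of WT mouse 2 (0.139 to 0.155%) and Eko mouse 1 (0.132 to 0.147%) overlapped, so these 2 mice could not be separated at this depth. For troponin C, Tnnc1 was 0.248% and 0.577% of Tnnc2 in WT animals and 0.479% and 0.268% in Eko animals. There the intervals of WT mouse 1 (0.234 to 0.264%) and Eko mouse 2 (0.253 to 0.284%) overlapped.

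For tropomyosin, Tpm3 was 0.401% and 0.907% of Tpm1 in WT animals and 0.722% and 0.448% in Eko animals. The 3 slow troponins summed were 0.157% and 0.404% of the 3 fast ones in WT animals and 0.329% and 0.182% in Eko animals. All 5 ratios ranked the mice alike, with WT mouse 2 first, Eko mouse 1 next, then Eko mouse 2 and WT mouse 1 last. They rest on the same 4 libraries and are not independent of one another. With the longest coding transcript as length the percentages were higher. A ratio of single genes keeps its ranking, since a length scales it alike in every mouse. The sum does not scale alike, because the lengths weight its genes. Its ranking was still the same, at 0.189% and 0.502% in WT animals and 0.412% and 0.226% in Eko animals. Between WT animals the ratios differed 2.26-fold to 3.17-fold, and between Eko animals 1.61-fold to 2.00-fold.

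Means of the slow-to-fast percentages were close between the genotypes. The summed troponin ratio was 0.280% ± 0.175 (SD, n = 2) in WT and 0.256% ± 0.104 (SD, n = 2) in Eko muscle. On the log2 scale Eko animals differed from WT animals by 0.03 for Tnnt1 to Tnnt3, 0.15 for Tnni1 to Tnni2, −0.08 for Tnnc1 to Tnnc2, −0.09 for Tpm3 to Tpm1 and −0.04 for the sum. The exact two-sided permutation test gave p = 1 for each of the 5, before and after Benjamini-Hochberg adjustment, and could not have gone below 0.333. With 2 mice per genotype this test cannot pass 0.05 for any difference.

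**Figure D3:**
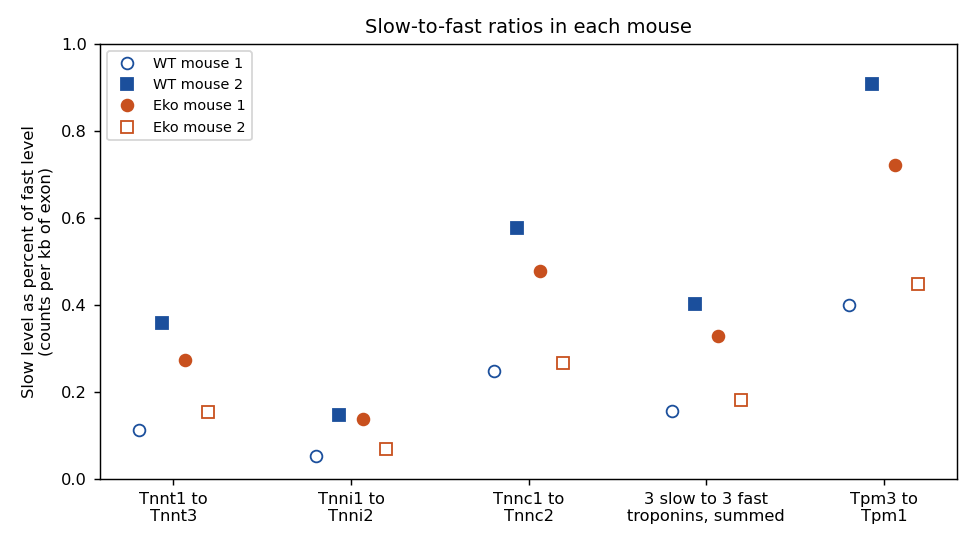
Level of each slow gene as a percentage of the fast gene of the same subunit, in counts per kb of exon, for each mouse, with WT mice in blue, Eko mice in orange, circles for mouse 1 and squares for mouse 2. In each of the 5 ratios the mice rank WT mouse 2, Eko mouse 1, Eko mouse 2 and WT mouse 1, and none of the percentages reaches 1.

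As shares of a subunit's RNA per kb, Tnnt3 made up between 99.6% and 99.8% of troponin T, and Tnnt2 between 0.0166% and 0.0430%. With the longest coding transcript as length the share of Tnnt2 was between 0.0730% and 0.189%, so its size depends on the length used, while its ranking over the mice was the same. Tpm1 made up 49.7% and 50.04% of the RNA of Tpm1, Tpm2 and Tpm3 in WT animals and 52.6% and 54.3% in Eko animals, and Tpm3 no more than 0.454% in any mouse. With the longest coding transcript Tpm1 made up 62.3% and 62.5% in WT animals and 64.9% and 66.5% in Eko animals. The shares of Tpm1 and Tpm2 did not overlap between the genotypes, and those of Tnnt1, Tnnt2, Tnnt3 and Tpm3 did.

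Other genes of slow fibres were set beside the members. Of 8 slow fibre genes, 0 passed the threshold in edgeR, 1 had an unadjusted p below 0.05, DESeq2 called 1 of them (Myoz2) and limma-voom 0, where 11.6%, 1.97% and 0.354% of all genes tested were called by these rules. In 7 of the 8, all but the myosin light chain gene Myl6b, WT mouse 2 was above WT mouse 1 and Eko mouse 1 above Eko mouse 2, and the median log2 fold change was −0.38. The same order held in 5 of the 9 fast fibre genes described below and in 21.7% of all genes tested, so it is not particular to slow fibre genes. Myh7, the slow myosin heavy chain, was at 113 and 339 CPM in WT animals and at 237 and 145 CPM in Eko animals, the same ranking as Tnnt1, with a log2 fold change of −0.24 (SE 0.46, adjusted p = 0.883). As a percentage of the fast myosins Myh1, Myh2 and Myh4 per kb, Myh7 was 0.112% and 0.340% in WT animals and 0.237% and 0.138% in Eko animals, which ranked the mice as the troponin ratios did.

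Other slow fibre genes parted from the troponins in their genotype values. Atp2a2, the calcium pump of slow and cardiac muscle, was at 152, 291, 168 and 126 CPM in WT mice 1 and 2 and Eko mice 1 and 2, and Myl3, a slow myosin light chain, at 59.9, 115, 78.3 and 44.2 CPM. In both genes WT mouse 2 was highest, as for the slow troponins, but the lowest was Eko mouse 2 and not WT mouse 1. Myoz2, a Z-disc protein of slow fibres, was lower in both Eko mice (28.6 and 21.0 CPM) than in both WT mice (39.3 and 39.7 CPM), with a log2 fold change of −0.67 (edgeR adjusted p = 0.154, DESeq2 adjusted p = 0.00077).

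**Figure D4:**
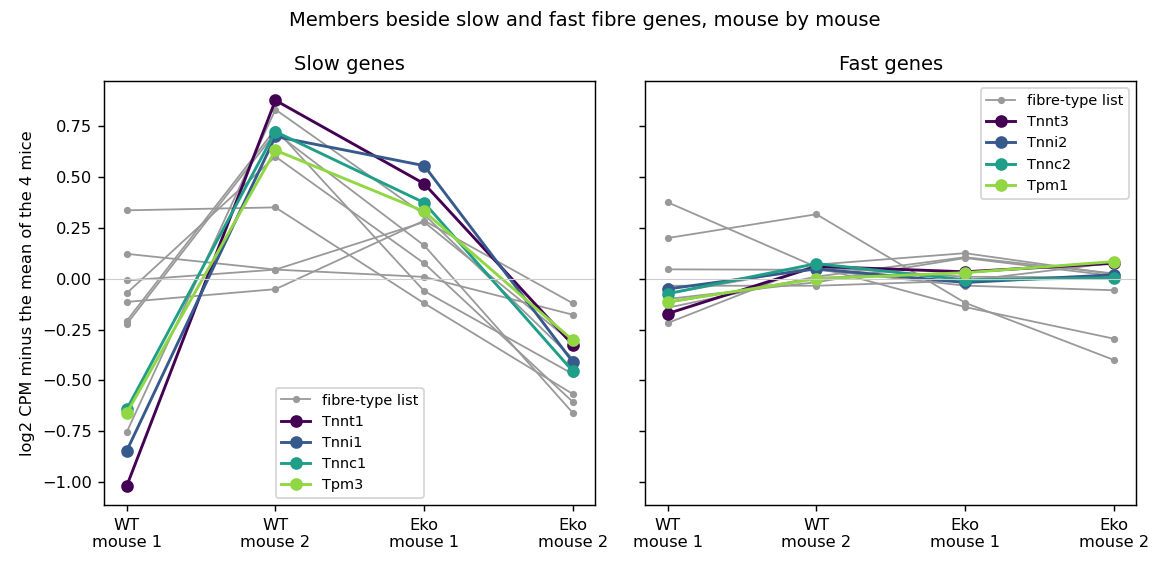
Level of each gene in each mouse as log2 CPM minus its mean over the 4 mice, for the slow members with the slow fibre genes (left) and the fast members with the fast fibre genes (right), where coloured lines are members, grey lines the other genes, and lines only join the points of a gene. The slow members run from about −1.02 in WT mouse 1 to 0.88 in WT mouse 2, and the fast members stay within 0.17 of their means.

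Among 6566 genes with a mean of at least 10 CPM that were no members, Myh7 had the profile over the 4 mice most like the mean profile of Tnnt1, Tnni1 and Tnnc1, at a root-mean-square distance of 0.09 in log2. The next were the transcription factor gene Six2 (0.29), the secreted-protein gene Dkk3 (0.36), Myl3 (0.37) and Gm37376 (0.37), while Tpm3 itself stood at 0.14. With only 4 mice, this measure describes these libraries and carries no test.

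Of 9 fast fibre genes, edgeR called 0, with 2 at an unadjusted p below 0.05, DESeq2 called 2 (Myh1 and Myh2) and limma-voom 0, beside the same shares of all genes tested (11.6%, 1.97% and 0.354%), and their median log2 fold change was 0.07. Myh4, the heavy chain of the fastest fibres, was at 64343 and 64345 CPM in WT animals and at 65444 and 69570 CPM in Eko animals. Myh2, the heavy chain of oxidative fast fibres, was lower in both Eko mice, at 1264 and 1040 CPM against 1576 and 1709 CPM, with a log2 fold change of −0.51 (edgeR adjusted p = 0.161, DESeq2 adjusted p = 0.00045), and Myh1 likewise had −0.44 (edgeR adjusted p = 0.261, DESeq2 adjusted p = 0.0137). Tnnt3, Tnni2 and Tnnc2 had log2 fold changes between −0.0027 and 0.11, and their difference from Myh1 and Myh2 was not tested.

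Markers of other cells were read in the same libraries. The fibroblast list (Col1a1, Col1a2, Col3a1, Pdgfra and Dcn) summed to 364 and 398 CPM in WT animals and to 427 and 328 CPM in Eko animals, and 4 of its 5 genes had the order of the slow troponins between same-genotype mice. Adipocyte markers (Adipoq, Plin1, Lep and Cfd) summed to 70.2 and 26.7 CPM in WT animals and to 21.7 and 9.84 CPM in Eko animals, highest in WT mouse 1, where Tnnt2 was highest and the slow troponins lowest. Most of the sum in WT mouse 1 was Cfd, at 48.5 CPM. Adipoq and Plin1 were also highest in that mouse, but Lep was highest in Eko mouse 1, at 4.43 CPM against 2.40 CPM in WT mouse 1. Macrophage markers (Adgre1, Cd68, Csf1r and Mrc1) summed to 17.2, 13.1, 13.3 and 9.04 CPM in WT mice 1 and 2 and Eko mice 1 and 2, the ranking of Tnnt2. Adgre1 and Mrc1 each had that ranking, whereas Cd68 and Csf1r had WT mouse 2 above Eko mouse 1. Endothelial (126 to 148 CPM), Schwann cell (14.9 to 22.5), satellite cell (3.33 to 4.85) and regenerating fibre (13.3 to 20.0) sums ranked the mice in other ways. The smooth muscle list (Myh11, Acta2, Tagln, Cnn1, Des, Smtn and Lmod1) summed to between 3084 and 3188 CPM. Nearly all of that was Des, at 3063 and 3084 CPM in WT animals and 2973 and 3063 CPM in Eko animals. Neither the level nor the ranking of this sum is therefore taken to describe smooth muscle. The part of other cells in the values of the members was not tested.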

How the data were processed

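PolyA RNA of quadriceps from 2 WT and 2 Mef2dα2 Eko male mice was sequenced on a NovaSeq instrument from TruSeq stranded libraries, and groups and replicate numbers came from the sample labels. After a FastQC check, the authors aligned reads to mm10 (GRCm38; the submitters' processing notes name STAR 2.6.1a) and estimated expected counts per gene with RSEM and the Ensembl annotation, and these expected counts were deposited without normalization. The strand setting of the counting is not given in the sources used here, so reads of a gene and of one overlapping it on the other strand may not be separated. Deposited values that were not whole numbered 0, so rounding changed none. The study compared the genotypes with DESeq2.

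Counts were compared in R 4.3.3 by edgeR 4.0.16 (quasi-likelihood test, TMM factors, a design of genotype alone) over the 16120 genes that filterByExpr retained out of 24621 with a count, and adjusted by Benjamini-Hochberg at 0.05. The prior count was 0.125 for log2 fold changes and 0.5 for the log2 CPM of profiles. Levels per kb used the union of GENCODE M21 exons on GRCm38, and promoters came from RefSeq on GRCm38.p6. Ratios were compared by an exact two-sided permutation test on their log2 values. Wilson intervals at 95% were computed on the share of slow counts among slow and fast counts and converted to ratios per kb; they and the floor of 3 counts cover counting error only. Between same-genotype libraries chi-square per degree of freedom was 160 for WT and 45.3 for Eko, far above counting noise.

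Replicate numbers name different mice, and p-values measure the spread between these mice. The alternatives were DESeq2 1.42.0, RLE and upper-quartile normalization, no filter, at least 1 CPM in 2 libraries, limma-voom (limma 3.58.1), the replicate number as a block, the longest coding transcript as length, and each mouse left out. The genes named are the 10 members, genes of fixed lists (other family members, thin filament partners, slow and fast fibre genes, cell type markers) and the 5 genes with the profile most like the slow troponins at a mean of at least 10 CPM. The members and lists were chosen with earlier results of these data known. The fit was tested on simulated data for 2 WT against 2 Eko libraries.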

Additional observations from a re-analysis of the deposited data

How the results depend on the processing

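Members past the threshold stayed at 0 under DESeq2, RLE, upper-quartile normalization, the filter of at least 1 CPM in 2 libraries, limma-voom and the replicate block. The count was 1 (Tnnt2) with no filter on low counts, and 0 to 1 with each mouse left out, the 1 again being Tnnt2, without WT mouse 2. Over all genes tested the count of calls, 67 as reported, was 318 with DESeq2 (186 lower, 132 higher), 799 with no filter (496 lower, 303 higher), 23 under that filter, and 99 to 299 with a mouse left out (99 without WT mouse 1, 299 without WT mouse 2, 204 without Eko mouse 1 and 126 without Eko mouse 2). The cause was not tested.

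With the replicate number as a block, 186 of 16120 genes were called (136 lower, 50 higher). Among them were 1 of the 8 slow fibre genes (Myoz2), 0 of the 9 fast fibre genes and 3 of the 16 thin filament partners (Actc1, Lmod3 and Actn2). With no filter on low counts, where 799 of 24621 genes were called, these counts were 4, 2 and 4. The labels give a number to each mouse but no shared litter or day, the deviations of same-numbered mice correlated at 0.066 over 16120 genes, and the numbers were not taken to pair the mice. Under the block the log2 fold changes of Tnnt1 and Tpm3 became 0.12 and 0.024.

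Members near 0 changed sign with small shifts. Tnnc2 was 0.0050 with DESeq2 and 0.0050 with RLE. Tnni2 was −0.0024 with upper-quartile normalization, −1.7e-06 with no filter and −0.0024 under the 1 CPM filter. In limma-voom Tnnt1 was 0.14 and Tpm3 0.030. With each mouse left out, log2 fold changes ran from −0.75 to 1.16 for Tnnt1, −0.54 to 1.02 for Tnni1, −0.70 to 0.68 for Tnnc1, −0.58 to 0.73 for Tpm3, −0.91 to 0.077 for Tnnt2, −0.0047 to 0.24 for Tnnt3, −0.047 to 0.066 for Tnni2 and −0.074 to 0.088 for Tnnc2. Tpm1 (0.06 to 0.19) and Tpm2 (−0.14 to −0.03) kept their direction there.

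The log2 slow-to-fast differences changed sign in the same way, from −0.80 to 0.86 for Tnnt1 to Tnnt3, −0.58 to 0.87 for Tnni1 to Tnni2, −0.69 to 0.53 for Tnnc1 to Tnnc2, −0.67 to 0.50 for Tpm3 to Tpm1 and −0.72 to 0.64 for the sum. Taken as the mean of the 3 log2 ratios, the summed difference was 0.032. With 2 mice per genotype, the 95% intervals of Tnnt1, Tnni1, Tnnc1 and Tpm3 hold log2 fold changes of either sign, as wide as −1.37 to 1.18 for Tnnt1.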

Other observations

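Partners of troponin and tropomyosin on the thin filament were read from a list of 16 genes. edgeR called 0 of them, with 6 at an unadjusted p below 0.05, DESeq2 called 3 (Lmod1, Lmod3 and Actn2) and limma-voom 0, and the median log2 fold change was 0.03. Over all genes tested the shares were 11.6% at an unadjusted p below 0.05, 1.97% with DESeq2 and 0.354% with limma-voom. The levels of 7 were higher in each Eko animal than in either WT animal and those of 4 were lower, where 20.8% and 23% of all genes tested were.

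Actc1, the cardiac α-actin that skeletal muscle expresses in development, was at 96.7 and 55.9 CPM in WT mice 1 and 2 and at 150 and 163 CPM in Eko mice 1 and 2. Both Eko values lay above both WT values, with a log2 fold change of 1.04 (edgeR adjusted p = 0.172), whereas Acta1, the adult skeletal α-actin, was at 23463 and 23204 CPM in WT and 20813 and 21451 CPM in Eko muscle. Without WT mouse 1 the log2 fold change of Actc1 was 1.49 (adjusted p = 0.00133), without WT mouse 2 it was 0.71 (adjusted p = 0.00726), and without Eko mouse 1 it was 1.11 (adjusted p = 0.00224), while it was not called without Eko mouse 2 or with DESeq2, limma-voom, RLE, upper-quartile normalization or the filter of 1 CPM in 2 libraries. With no filter on low counts Actc1 was called at a nearly unchanged log2 fold change (1.04, adjusted p = 1.9e-31), where 799 of 24621 genes were called. That p-value therefore came with the setting and not with a larger difference. With the replicate number as a block Actc1 was called at 1.09 (adjusted p = 0.0426). The cardiac troponin genes Tnnt2 and Tnni3 were highest in WT mouse 1.

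Lmod3, which acts at the pointed end of the thin filament of skeletal muscle, was at 142 and 148 CPM in WT and 111 and 108 CPM in Eko muscle (log2 fold change −0.40, edgeR adjusted p = 0.083, DESeq2 adjusted p = 0.0002). Actn2, the α-actinin of all fibre types, was at 544 and 431 CPM in WT and 345 and 335 CPM in Eko muscle (log2 fold change −0.52, edgeR adjusted p = 0.170, DESeq2 adjusted p = 0.00106). Lmod1, the smooth muscle leiomodin, was at 5.26 and 6.17 CPM in WT and 8.99 and 8.37 CPM in Eko muscle (log2 fold change 0.60, edgeR adjusted p = 0.143, DESeq2 adjusted p = 0.0162). Tpm4, a tropomyosin mostly of non-muscle cells, was at 20.9 and 26.0 CPM in WT and 19.2 and 22.8 CPM in Eko muscle, with overlapping values (log2 fold change −0.16, adjusted p = 0.681).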
